A study of Rattus norvegicus with 16 samples.

Results

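The genes described here encode the synaptic vesicle release machinery, the proteins that dock, prime and fuse transmitter vesicles at the nerve terminal, together with their closest relatives. Members were chosen by a rule on gene symbols, which uses no measured value. The symbols covered were synaptotagmins (Syt), syntaxins (Stx), vesicle-associated membrane proteins (Vamp), the Snap family, synapsins (Syn1 to Syn3), complexins (Cplx), syntaxin-binding proteins (Stxbp), Unc13a to Unc13d, Rims, Otof, Sv2a to Sv2c, Syp, Nsf, Napa, Napb, Napg, Rab3a to Rab3d and Doc2a, Doc2b and Doc2g. A total of 73 genes matched in the female table of 14272 genes, and the same 73 matched in the male table of 14316 genes. Every member therefore lay among the 13731 genes with a row in both tables.

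RNA was sequenced from the periaqueductal gray (PAG), the cell-dense zone around the midbrain aqueduct that gates calls, defensive behavior and pain. All donors were Long Evans rats at 8 months of age. There were 4 groups with 4 libraries in each, female Pink1-/-, female WT, male Pink1-/- and male WT, which made 16 libraries. Pink1-/- rats lack the mitochondrial kinase Pink1, whose loss in people causes a recessive form of Parkinson disease. A line with a constitutive knockout lacks the gene in glia as well as in neurons.

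Only 1 measured quantity per gene and sex was used, namely the authors' average level over the 8 libraries of that sex, in CPM (the reads of a gene scaled so that every library has the same total). That average takes in both genotypes, 4 Pink1-/- and 4 WT rats. No difference between Pink1-/- and WT rats is given, since the tables hold it only as the authors' own comparison, which was not used here. Values of single libraries were not analysed here, so depth and the spread between rats are unknown, and no value below has an error or a test. Pink1 itself averaged 67.5 CPM in the female table and 35.0 CPM in the male table over both genotypes, which cannot check the genotype of any library.

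Vesicle fusion is driven by SNARE proteins, helical proteins on the vesicle and on the plasma membrane that zip together and pull the membranes into contact. Unc13 (Munc13) proteins guide the assembly of this complex, complexins clamp it, and synaptotagmins release it when calcium enters. The ATPase Nsf and its Nap (SNAP) adaptors then take the spent complex apart. In the PAG this machinery serves excitatory, inhibitory and peptide-releasing terminals.

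The first question was which genes matching the rule had a row in the tables. RefSeq gene symbols of the rat assembly GRCr8 matched the rule 82 times, and 73 of these genes had a row. The other 9 symbols, for which no value was analysed here, were Cplx3, Cplx4, Snap23, Stx11, Stx19, Sv2b, Syt8, Vamp5 and Vamp9. Symbols were matched by name alone, so whether these genes were detected in the PAG was not tested. No member was present in 1 table alone, and no member had a different symbol in the other table.

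As a group the release machinery genes drew more reads per gene than most genes of the tables. The median member had 46.3 CPM in the female table, where the median of all genes was 16.08 CPM, and 49 of 73 members (67.1%) lay above that median. In the male table the median member had 35.6 CPM against 13.16 CPM over all genes, with 52 of 73 members (71.2%) above, where 50% of all genes lie by construction. Levels over 100 CPM were seen for 24 members in each table, which is 32.9%. Among all genes such levels were held by 9.52% in the female table and 8.14% in the male table. Members summed to 0.894% of all CPM in the female table and 0.798% in the male table. Reads per gene rise with transcript length, and lengths were not available for scaling, so no order of levels among genes is given. The comparison of members with all genes carries the same limit, and the part of length in it was not tested.

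The tissue label was checked against marker genes. All 8 neuronal markers had rows in both tables (Eno2 under different IDs, so that it has no difference below). Map2, a dendritic microtubule protein, had 2299 CPM in females and 2730 CPM in males. Before any centring Map2, Rbfox3 and Eno2 were lower in the female table, whereas Tubb3, Nefl, Nefm, Stmn2 and Snhg11 were higher there. All 6 oligodendrocyte markers were present, and their summed level was 10618 CPM in the female table and 6840 CPM in the male table. The 6 astrocyte markers summed to 1215 CPM in females and 1266 CPM in males, and the 6 microglial markers to 111 CPM in females and 92.2 CPM in males. Neurons and the main glial types were thus all represented. Tph2, the serotonin-synthesizing enzyme of the neighbouring dorsal raphe, was at 8.53 CPM in females and 13.9 CPM in males. Of 6 markers of cerebellar neurons, 2 had rows in the female table and 5 in the male table, where Fat2 was at 19.3 CPM and Gabra6 at 9.29 CPM. Among 3 dopaminergic markers, Th and Slc6a3 had rows in the male table alone, at 1.24 and 0.808 CPM. Ddc had rows in both tables, at 7.30 CPM in females and 10.8 CPM in males. The marker lists thus differed between the tables, and their part in the differences described here was not tested.

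SNARE proteins formed the largest role group, with 23 members. Their levels ran between 0.972 and 886 CPM in the female table and between 1.41 and 1202 CPM in the male table. Snap25, the plasma membrane SNARE of neurons and a target of botulinum toxin, had 886 CPM in females and 1202 CPM in males. It was lower in the female table. Its vesicle partners Vamp1 and Vamp2 (synaptobrevins) had 810 and 92.7 CPM in the female table, and 716 and 119 CPM in the male table. Stx1a, a neuronal syntaxin of the plasma membrane, had 11.6 CPM in females and 8.11 CPM in males. Several genes of this group serve other membranes. Stx7, Stx8, Stx12 and Vamp8 act on endosomes and lysosomes, Stx5, Stx6 and Stx16 in and around the Golgi apparatus, Stx17 on autophagosomes and Stx18 on the endoplasmic reticulum. Those 9 genes ranged between 0.972 CPM for Vamp8 and 130 CPM for Stx12 in females, and between 1.41 CPM for Vamp8 and 122 CPM for Stx12 in males. Of the other plasma membrane forms, Stx2, Stx3 and Stx4, which serve secretion in many cell types, had 12.1, 12.1 and 15.9 CPM in the female table, and 9.31, 13.5 and 14.1 CPM in the male table. Vamp3, Vamp4 and Vamp7, vesicle SNAREs of endosomes, the Golgi apparatus and lysosomes, had 30.0, 54.3 and 23.2 CPM in the female table, and 25.8, 58.2 and 19.2 CPM in the male table. Snap29, which acts with Stx17 on autophagosomes, had 31.0 CPM in females and 30.3 CPM in males. Of these 7 genes, Stx3 and Vamp4 were lower and the other 5 higher in the female table before any centring. Snap91, at 272 CPM in females and 190 CPM in males, matched the rule by name but encodes the clathrin adaptor AP180, which recycles vesicle membrane and is no SNARE.

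The 16 regulators and recycling factors had a median of 105 CPM in the female table and 72.2 CPM in the male table. For Nsf the values were 582 CPM in females and 499 CPM in males. Its adaptor Napb, the brain form of SNAP, had 127 CPM in females and 118 CPM in males, whereas the widely expressed form Napa had 87.4 CPM in females and 44.0 CPM in males. Complexin 1 (Cplx1) had 454 CPM in females and 227 CPM in males, and complexin 2 (Cplx2) had 166 CPM in females and 143 CPM in males. Napa and Cplx1 thus lay further apart between the tables than Napb and Cplx2. Stxbp5 (tomosyn) and Stxbp6 (amisyn), which hold SNARE assembly back, had 171 and 21.2 CPM in the female table, and 150 and 26.0 CPM in the male table. Stxbp3, the Munc18 form of non-neuronal cells, had 49.8 CPM in females and 40.8 CPM in males, and Stxbp4 had 6.73 CPM in females and 8.35 CPM in males. All 4 Unc13 priming factors had rows. Unc13a, the main form at many excitatory synapses, had 54.9 CPM in females and 39.9 CPM in males, and Unc13b had 34.6 CPM in females and 42.8 CPM in males. Unc13c, known chiefly from cerebellar granule cells, had 271 CPM in females and 312 CPM in males. Cerebellar markers were also fuller in the male table, as given above, and their part in the Unc13c level was not tested. Unc13d, which acts in secretion from immune cells, had 2.65 CPM in females and 0.916 CPM in males. Stxbp2, its partner in those cells, had 1.37 CPM in females and 0.902 CPM in males.

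The group named calcium sensors was formed by symbol prefix and held 20 genes, of which 16 were synaptotagmins. Not all of them bind calcium, as given below. Syt1 and Syt2, the fast sensors of synchronous release, had 297 and 194 CPM in the female table, and 357 and 114 CPM in the male table. Syt11, which does not bind calcium, had 779 CPM in females and 580 CPM in males. Syt7, a slow sensor of asynchronous release, had 39.2 CPM in females and 27.2 CPM in males. Both Syt11 and Syt7 were higher in the female table. Otof (otoferlin), best known as the sensor of inner hair cells, was present in the PAG at 21.9 CPM in females and 16.0 CPM in males. The cytosolic sensors Doc2a and Doc2b, which promote spontaneous release, had 16.0 and 4.43 CPM in the female table, and 11.3 and 5.44 CPM in the male table. Near the lower end of detection, Syt15 had 1.58 CPM in females and 2.23 CPM in males, and Doc2g had 2.16 CPM in females and 1.13 CPM in males. Syt4, found on peptide-filled vesicles, had 179 CPM in females and 174 CPM in males. Syt12 and Syt13, which lack calcium binding, had 46.3 and 111 CPM in the female table, and 36.7 and 83.5 CPM in the male table. Syt9, a fast sensor of some forebrain terminals, had 6.06 CPM in females and 4.63 CPM in males. Of the remaining synaptotagmins, Syt5, Syt6 and Syt17 had 21.4, 38.1 and 10.3 CPM in the female table, and 16.8, 35.6 and 9.86 CPM in the male table. Syt16 was slightly lower in females than its 10.4 CPM in males.

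Active zone and tethering genes numbered 8. Rims1 and Rims2, the scaffolds that tie vesicles to calcium channels, had 91.3 and 148 CPM in the female table, and 103 and 169 CPM in the male table. Rims3 and Rims4 encode short forms that keep only the end of the scaffold, and had 23.9 and 3.95 CPM in the female table, and 8.44 and 1.63 CPM in the male table. Of the vesicle GTPases that bind Rims proteins, Rab3a had 234 CPM in females and 195 CPM in males, and Rab3c had 65.8 CPM in females and 96.9 CPM in males. Rab3a and Rab3c thus lay on opposite sides between the tables. Rab3b and Rab3d stayed at or under 6.01 CPM in both tables.

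The 6 vesicle membrane and reserve pool genes all exceeded 10 CPM. The vesicle protein Sv2a, the binding site of levetiracetam, had 503 CPM in females and 325 CPM in males, and Sv2c, a form of basal ganglia and brainstem, had 82.0 CPM in females and 64.7 CPM in males. Synaptophysin (Syp) had 223 CPM in females and 171 CPM in males. The synapsins, which hold vesicles in the reserve pool, had 103 CPM for Syn1, 109 CPM for Syn2 and 14.9 CPM for Syn3 in the female table, and 95.6 CPM for Syn1, 109 CPM for Syn2 and 12.9 CPM for Syn3 in the male table.

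**Figure D1:**
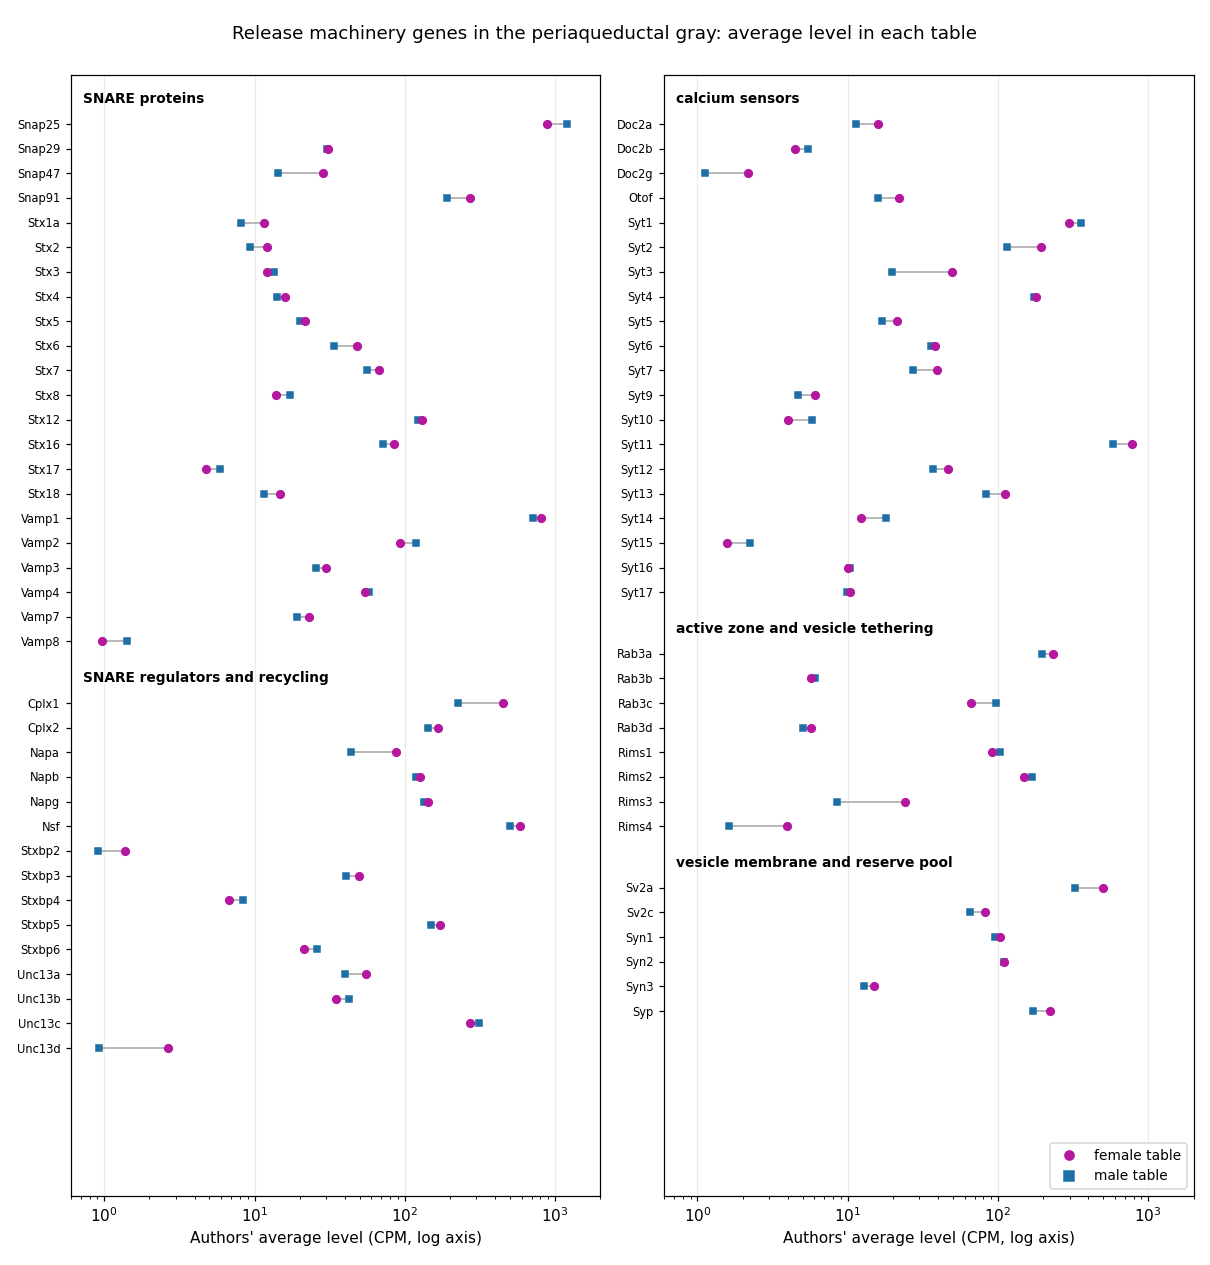
Average level of 71 of the 73 release machinery genes in CPM on a log axis, by role group, with the female table as circles and the male table as squares. Levels span 0.972 to 886 CPM in females and 0.902 to 1202 CPM in males, and the 2 symbols of a gene lie close together for most genes.

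The next question was how the levels of the members differed between the tables. The authors normalized each table on its own, and the female and male libraries carry names of different style. The gene models may differ as well, since 279 shared IDs carried different symbols. Eno2, under different IDs, had 73.0 CPM in females and 533 CPM in males. Sex, a possible cohort and possible differences in gene models therefore cannot be told apart, and no test was made. In bulk tissue, fewer cells of a type and less RNA per cell cannot be told apart either. Over all 13731 shared genes the female level was higher by a median of 0.19 on the log2 scale, and the differences below are female minus male less that shift.

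The differences of the members were centred near those of all shared genes. Their median difference was 0.018, with 38 of 73 members (52.1%) above the shift. The central portion of members, between the lower and upper quartile, lay between -0.29 and 0.24, against -0.30 and 0.38 over all shared genes. Only 3 members (4.11%) lay outside the range between the 5th and 95th percentile of all shared genes (-0.77 to 1.09), where 10% of genes lie by construction. All 3 of these, Unc13d, Rims3 and Syt3, were higher in the female table. This direction depended on the genes kept. For genes at 10 CPM or more in both tables, a limit chosen after seeing the data, shift and range were computed anew over 7823 genes. The shift was then 0.14, and the 5th to 95th percentile less that shift ran from -0.57 to 0.89. By this narrower range 4 of 56 members (7.14%) lay outside. Of these, Snap25, Syt14 and Rab3c were lower and Syt3 was higher in the female table. Unc13d and Rims3 were under that limit in the male table. By role group the median difference was -0.02 for SNARE proteins, 0.03 for regulators and recycling factors, 0.16 for calcium sensors, -0.13 for active zone and tethering genes and 0.09 for vesicle membrane and reserve pool genes.

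**Figure D2:**
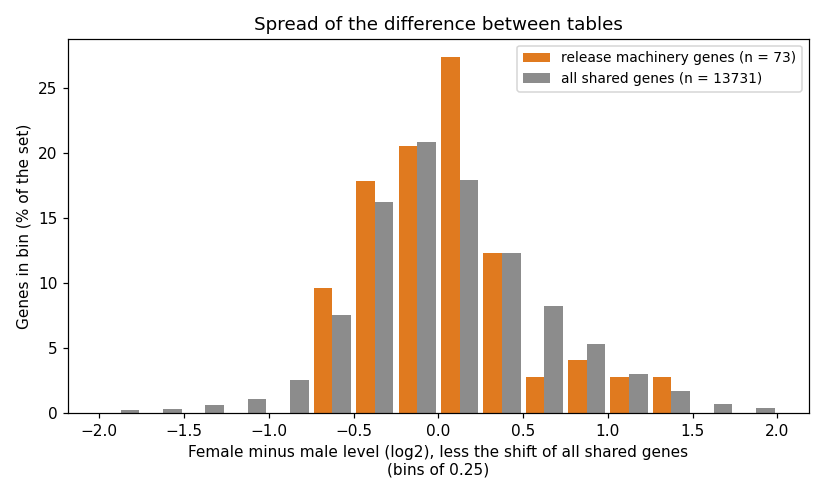
Share of genes in bins of 0.25 of the female minus male level on the log2 scale, less the shift of all shared genes, for the 73 members and for all 13731 shared genes. No member lies below -0.75, and 52.1% of members lie above the shift.

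The 5 members highest in the female table relative to the shift were Unc13d at 1.34, Rims3 at 1.32, Syt3 at 1.15, Rims4 at 1.09 and Snap47 at 0.82 (log2 differences). Syt3 encodes a synaptotagmin with high calcium affinity and had 49.5 CPM in females and 19.6 CPM in males. Snap47, a SNARE of intracellular membranes, had 28.7 CPM in females and 14.3 CPM in males. Cplx1 at 0.82 and Napa at 0.80 came next. Unc13d and Rims4 were under 5 CPM in both tables.

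The 5 members lowest in the female table relative to the shift were Rab3c at -0.75, Syt14 at -0.72, Vamp8 at -0.72, Syt10 at -0.70 and Syt15 at -0.68 (log2 differences). Syt14 had 12.3 CPM in females and 17.9 CPM in males, and Syt10, which in mouse olfactory neurons drives secretion of a growth factor, had 4.02 CPM in females and 5.75 CPM in males. Snap25 lay at -0.63, at percentile 7.97 of all shared genes. Its SNARE partner Vamp2 lay at -0.54 and the sensor Syt1 at -0.45. The other vesicle partner Vamp1 lay at -0.01, and the plasma membrane syntaxin Stx1a lay on the other side of the shift, at 0.33.

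Within several families the paralogs lay on different sides of the shift. By construction 50% of all shared genes lie on each side, and the share of split families over all genes was not computed. Some of the values below lie near the shift, and the spread between rats is unknown. Rims1 and Rims2 lay at -0.36 and -0.39, whereas Rims3 and Rims4 lay at 1.32 and 1.09. Among priming factors Unc13a lay at 0.27, Unc13b at -0.49 and Unc13c at -0.39. The fast sensors Syt1 and Syt2 lay at -0.45 and 0.59. For the Nsf adaptors the differences were 0.80 for Napa, -0.08 for Napb and -0.10 for Napg. Rab3a and Rab3c lay at 0.08 and -0.75. The complexins Cplx1 and Cplx2 lay on the same side, at 0.82 and 0.03. Among the synapsins Syn1 and Syn2 lay at -0.08 and -0.18, and Syn3 at 0.02.

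**Figure D3:**
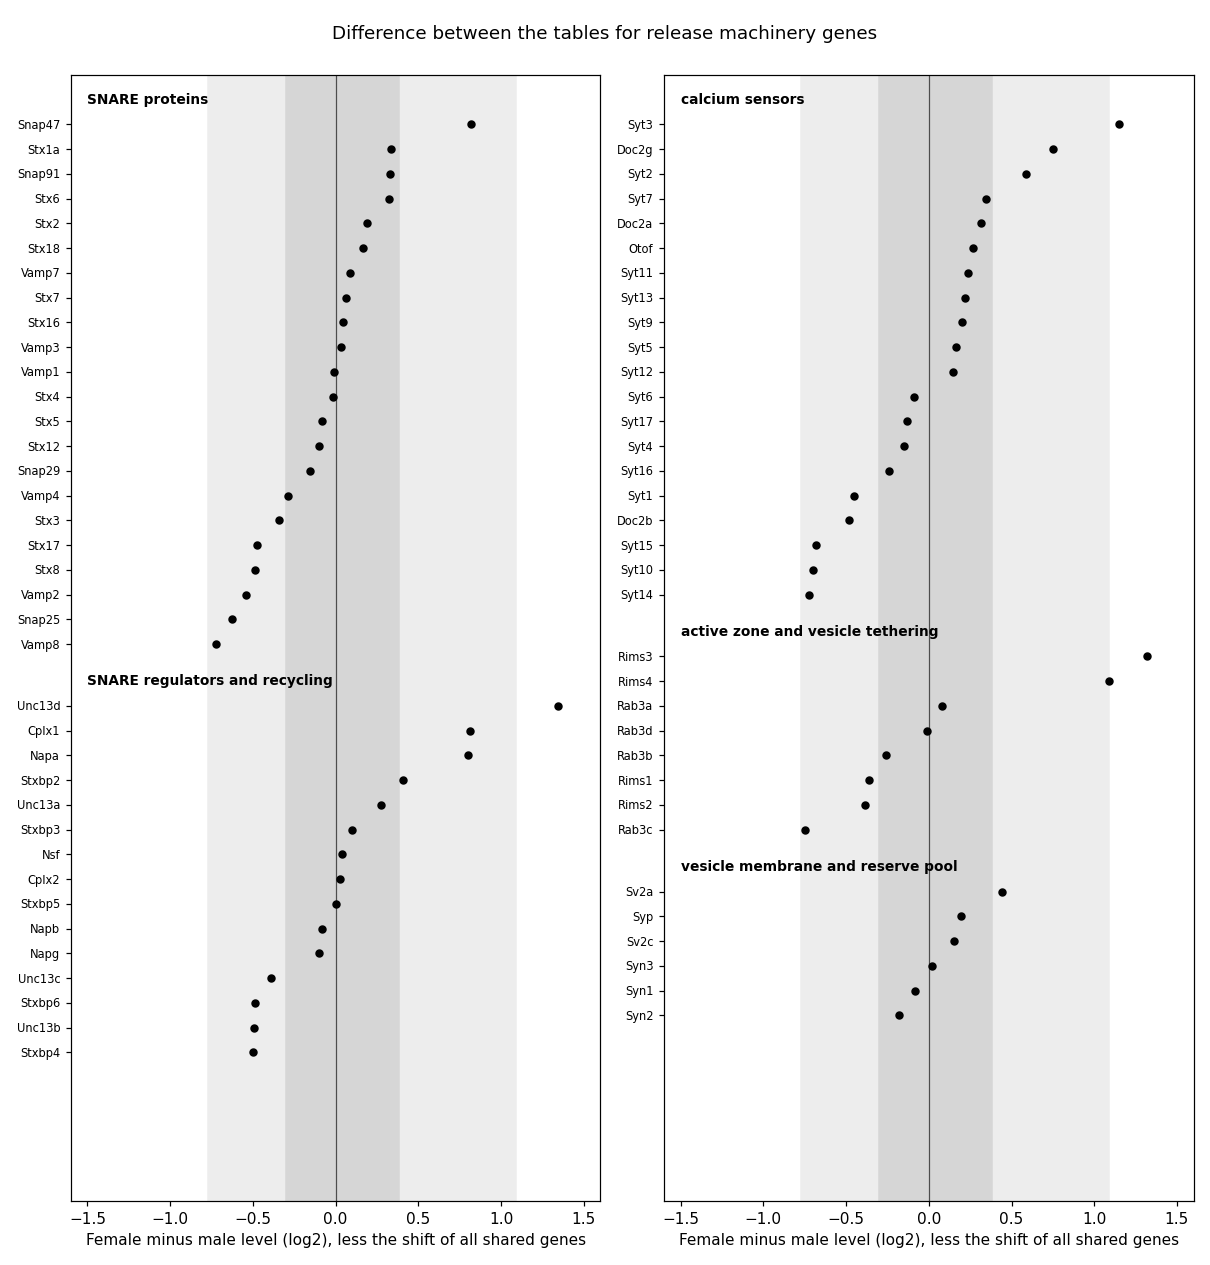
Female minus male level on the log2 scale, less the shift of all shared genes, for 71 of the 73 members, sorted within role groups. The dark band is the range between the 25th and 75th percentile of all shared genes (-0.30 to 0.38) and the light band that between the 5th and 95th (-0.77 to 1.09). Unc13d, Rims3 and Syt3 lie beyond the light band.

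Other genes of the presynapse, taken from a list of 43 that the symbol rule does not cover, were described in the same way. All 43 had rows in both tables, with a median difference of 0.13 and 26 (60.5%) above the shift. Outside the 5th to 95th percentile lay 5 (11.6%). The 10 endocytosis genes had a median difference of 0.27 and the 5 proton pump genes one of 0.13, with 5 of 5 above the shift. The vesicular GABA transporter Slc32a1 had 38.3 CPM in females and 9.54 CPM in males (difference 1.82), and the vesicular glutamate transporter Slc17a6 had 424 CPM in females and 387 CPM in males (difference -0.05). Syngr1, a relative of synaptophysin, had 41.2 CPM in females and 8.75 CPM in males (difference 2.05). The active zone scaffolds Bsn and Pclo lay at 0.87 and -0.62. Marker lists differed as well, with a median difference of 0.07 for 7 neuronal, -0.02 for 6 astrocyte, -0.07 for 6 microglial and 0.46 for 6 oligodendrocyte markers. The highest median among the marker lists was 0.85, for the 3 endothelial markers with rows, which summed to 182 CPM in females and 115 CPM in males. These 3 were split, with Cldn5, a tight junction protein, at 2.12, Vwf at 0.85 and Flt1 at -0.05. The larger lists were split too. Neuronal markers ran between -0.43 and 0.82, and astrocyte markers between -0.52 and 0.41. Microglial markers ran between -0.20 and 0.85, and oligodendrocyte markers between -0.21 and 1.17. Of the cerebellar list only Calb1 and Cbln1 had rows in both tables, at -0.72 and -0.60. Gabra6, Cbln3 and Fat2 had no row in the female table and so no difference. Both raphe markers with rows, Tph2 and Slc6a4, were lower in the female table, at -0.89 and -1.55. Whether these lists bear on the members was not tested.

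A feature that the symbol rule did not use was promoter sequence. Promoter sequences of RefSeq (build GRCr8, 250 bases before to 50 after the start site) were matched by symbol for 53 of 73 members and 9102 other shared genes. The median GC content was 62.7% in members and 61.3% in the others. The GC box GGGCGG, on either strand, was found in 41 of 53 members (77.4%) and in 63.3% of the others. The CCAAT box was found in 30.2% of members and 37.4% of the others, and the E-box CACGTG in 11.3% of members and 9.43% of the others. The TATA box TATAAA was found in 1 member, Stxbp3 (1.89%), and in 6.43% of the others.

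The full cyclic AMP response element TGACGTCA, the site known to bind CREB, a factor driven by neuronal activity, was found in 3 of 53 members (5.66%) and in 3.21% of the others. These 3 promoters belong to the vesicle SNARE Vamp1, the synapsin Syn1 and the Nsf adaptor Napa and are printed to show where the element lies. Capitals mark the element, which begins 71 bases before the start site in Vamp1 (chr4:159698644-159698943), 190 bases before it in Syn1 (chrX:3725495-3725794) and 59 bases before it in Napa (chr1:85915185-85915484), all on the plus strand of GRCr8. The difference between tables was -0.01 for Vamp1, -0.08 for Syn1 and 0.80 for Napa. A match of letters does not show that a factor binds.
Vamp1 promoter: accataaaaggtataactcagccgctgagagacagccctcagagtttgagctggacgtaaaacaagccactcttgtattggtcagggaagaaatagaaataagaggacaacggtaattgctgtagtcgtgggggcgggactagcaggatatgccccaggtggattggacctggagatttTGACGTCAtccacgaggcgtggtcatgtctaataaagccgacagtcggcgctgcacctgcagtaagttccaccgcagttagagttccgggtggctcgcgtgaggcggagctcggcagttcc
Syn1 promoter: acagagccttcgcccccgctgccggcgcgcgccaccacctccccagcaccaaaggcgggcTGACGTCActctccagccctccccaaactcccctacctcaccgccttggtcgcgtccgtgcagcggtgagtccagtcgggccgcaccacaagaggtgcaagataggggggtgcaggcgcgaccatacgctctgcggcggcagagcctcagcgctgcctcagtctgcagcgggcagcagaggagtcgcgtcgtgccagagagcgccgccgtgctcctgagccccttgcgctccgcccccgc
Napa promoter: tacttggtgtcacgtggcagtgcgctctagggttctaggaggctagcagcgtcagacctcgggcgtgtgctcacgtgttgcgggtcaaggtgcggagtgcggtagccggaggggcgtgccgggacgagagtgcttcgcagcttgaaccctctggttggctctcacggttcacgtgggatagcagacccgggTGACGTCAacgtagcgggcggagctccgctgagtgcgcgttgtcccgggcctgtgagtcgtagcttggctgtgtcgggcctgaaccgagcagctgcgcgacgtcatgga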

How the data were processed

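Total RNA of the periaqueductal gray was sequenced from 16 Long Evans rats, with libraries made by the TruSeq RNA kit per the labels. Reads were quantified with RSEM and analysed in edgeR 3.9 by the authors. The aligner, reference build, gene models and low-count filter were not given in the sources used here. RSEM divides reads between similar sequences, which makes levels of near-identical copies uncertain. The authors deposited 1 table per sex, normalized separately. Its average log2 CPM by the authors, over 8 libraries of both genotypes, was the only measurement used. The tables' other columns hold the authors' own comparison of genotypes (log2 fold change, likelihood-ratio statistic, p-value, FDR and status) and were not used. Planned count tests and levels per kilobase could not be run, since the tables hold no value per library and no lengths were at hand. The lowest row had 0.503 CPM (female table) or 0.463 CPM (male table).

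Tables were joined by Ensembl ID, since 279 shared IDs carried different symbols, and CPM was computed as a power of the log2 level. The difference between tables was centred on the median of all shared genes. Genes named with values were the 5 members with the largest difference each way and paralog pairs. The 3 members of each role group with the highest level per kilobase, also planned, could not be found, and further members were named for their roles with their values known. Role groups follow symbol prefixes. For 2 members single values are not reported here, and counts and medians take them in. Members and lists were chosen with earlier results of these data known, and motifs after the levels were seen. Python 3.11.15, numpy 2.4.6, pandas 2.3.3, scipy 1.17.1 and matplotlib 3.10.9 were used. Only the join, the shift and the percentiles were tried on simulated data.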

Additional observations from a re-analysis of the deposited data

How the results depend on the processing

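The median level of the members was 5.53 log2 CPM in females and 5.15 in males, and 5.56 in females and 5.20 in males when only members at 1 CPM or more were kept. The median difference between tables was 0.20 before centring, 0.018 after centring on all shared genes, and 0.063 after centring on shared genes at 10 CPM or more in both tables, a setting chosen after seeing the data. At that level limit 4 of 56 members (7.14%) lay outside the 5th to 95th percentile of the 7823 genes kept (-0.57 to 0.89). These were Snap25, Syt14 and Rab3c, lower in the female table, and Syt3, higher there. Joining by symbol gave the same 73 members. The share of members above the median gene was 67.1% in both tables when only genes with a proper name were kept, and 68.1% in females and 71.8% in males at 1 CPM or more. No paired analysis was possible because the tables hold no value per library, and leaving out single libraries, other normalizations, DESeq2 and levels per kilobase were not run for the same lack of values or lengths. Without a spread between rats, none of the differences between tables can be read as larger than replicate error.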
